A study of Arabidopsis thaliana with 6 samples.

Results

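Alpha-expansins are cell wall proteins that let plant walls extend when the wall is acid, by loosening contacts between cellulose and the polymers around it rather than by cutting them. The family is large, and its members are divided among tissues and kinds of growth, such as root hairs, emerging lateral roots, guard cells and leaves. The protons that expansins need are delivered to the wall by plasma membrane proton pumps. Messenger RNA levels of 10 alpha-expansin genes of Arabidopsis thaliana (EXPA1, EXPA3, EXPA4, EXPA5, EXPA6, EXPA7, EXPA8, EXPA10, EXPA14 and EXPA18), taken by their TAIR gene identifiers from a table of 32424 loci, are described here in seedlings exposed for 1 h to N-linolenoylethanolamine (NAE 18:3).

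All seedlings were wild type of the Col-0 ecotype and were kept in liquid half-strength MS medium with 1% sucrose for 1 h. The treated group received NAE 18:3, the ethanolamide of linolenic acid, at 100 µM, and the control group received the solvent DMSO at 0.07%. Each group had 3 libraries, described as biological replicates, and the age is given as 4 days in the age label and as 3 days in the growth text. The labels do not give the DMSO content of the NAE 18:3 medium, so an effect of a difference in solvent cannot be told apart from that of the compound.

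Levels are in FPKM, fragments per kilobase of transcript scaled to the mapped fragments of each library, as deposited by the authors. The comparison asks which transcripts differ after a short exposure. Log2(FPKM + 1) values of the 18194 loci whose mean reached 1 FPKM were fitted with limma, and a locus was called at a p under 0.05 after Benjamini-Hochberg adjustment over all of them. On this scale 83.2% of all loci tested were called, 44.1% higher and 39.2% lower after NAE 18:3, so a call by itself is common in these data. Summed FPKM was 688025 to 866221 in DMSO and 991483 to 1140302 after NAE 18:3, and library depth relative to NAE 18:3 replicate 1, read from the steps of the lowest values, was estimated at 0.482 in DMSO replicate 1 to 1.265 in NAE 18:3 replicate 3. Only 21.8% to 27.2% of the low values compared lay on the common step, so the order of the depths is uncertain. With each library brought to the same upper quartile, the median over all loci tested was -0.25 in place of 0.06 on the log2 scale, and small changes below are to be read against that shift. Whole seedlings were sampled, so fewer cells of a type and less RNA per cell cannot be told apart.

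Because the deposited annotation of EXPA7 names a root hair element, the windows of 250 bases upstream of the annotated gene starts of the 10 genes were searched for its core. The core was searched on both strands as TG, then 4 or 5 unspecified bases, then CACG, which is looser than the full element. The submitters' notes name TAIR9, and the deposited table holds no coordinates. The windows and their coordinates come from the RefSeq genome and annotation of TAIR10.1, which carries on the nuclear chromosome sequences of TAIR9. The core was found in 3 of the 10 windows, and these 3 are shown 5′ to 3′ in the direction of the gene, with the matches in capitals.
EXPA7, chr1:4276255-4276504, plus strand: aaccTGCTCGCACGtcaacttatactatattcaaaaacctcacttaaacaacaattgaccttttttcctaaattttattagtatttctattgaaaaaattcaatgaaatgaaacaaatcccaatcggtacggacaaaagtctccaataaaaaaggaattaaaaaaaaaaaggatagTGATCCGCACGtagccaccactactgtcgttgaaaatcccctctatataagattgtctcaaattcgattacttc
EXPA18, chr1:23331313-23331562, plus strand: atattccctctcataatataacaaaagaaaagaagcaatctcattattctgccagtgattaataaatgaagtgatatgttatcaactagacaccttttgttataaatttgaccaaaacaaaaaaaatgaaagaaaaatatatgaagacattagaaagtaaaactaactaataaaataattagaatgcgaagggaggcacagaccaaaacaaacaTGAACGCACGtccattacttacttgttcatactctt
EXPA6, chr2:12433797-12434046, minus strand: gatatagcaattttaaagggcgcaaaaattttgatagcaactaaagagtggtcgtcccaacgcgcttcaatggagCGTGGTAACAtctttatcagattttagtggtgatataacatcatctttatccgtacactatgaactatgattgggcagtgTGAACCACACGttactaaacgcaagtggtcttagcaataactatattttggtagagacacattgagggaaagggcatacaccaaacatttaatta

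In EXPA7 the matches were TGCTCGCACG, from -246 to -237, and TGATCCGCACG, from -74 to -64, counted from the base before the gene start as -1. In EXPA18 the match was TGAACGCACG, from -36 to -27. EXPA6 held TGAACCACACG from -95 to -85 and, read on the other strand, a match from -175 to -166. No match overlapped another. One form or the other of this core stood in 9.02% of the 27437 windows of nuclear protein-coding genes, and in 0 of the 15 windows of other alpha-expansin genes. A match is a run of letters and not a shown binding site. The auxin response element TGTCTC was in the windows of EXPA5, EXPA6, EXPA7 and EXPA10, 4 of the 10, against 10.9% of all windows. The string TATAAA, a form of the TATA box, was in 4 of the 10, against 47.4% of all windows. It was counted on either strand and at any place, as in EXPA3 on the other strand and in EXPA4 from -220. These counts therefore do not tell which genes have a TATA box. The G-box CACGTG and the bZIP element ACTCAT were in 0 of the 10, against 6.49% and 12.3% of all windows.

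Of the 10 alpha-expansins 2 rose, 7 fell and EXPA6 did not pass the test, where 44.1% of all loci tested were called higher and 39.2% lower. The groups did not overlap for 9 of the 10, where 84.6% of all loci tested had groups that did not overlap. The median log2 change was -0.36, beside 0.06 over all loci tested, and these medians were -0.68 and -0.25 after scaling to the upper quartile. Falls of at least 1 on the log2(FPKM + 1) scale were found for 4 of the 10, namely EXPA7, EXPA10, EXPA14 and EXPA18. Among all loci tested 17.2% fell that far. After quantile normalization EXPA7 was short of this limit, at -0.95. All 10 passed the filter, but EXPA7, EXPA14 and EXPA18 had means under 1 FPKM after NAE 18:3 and so passed through their level in DMSO. By their level in DMSO the members that rose ranked 2 and 4, and the 4 that fell furthest ranked 5, 7, 9 and 10.

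**Figure D1:**
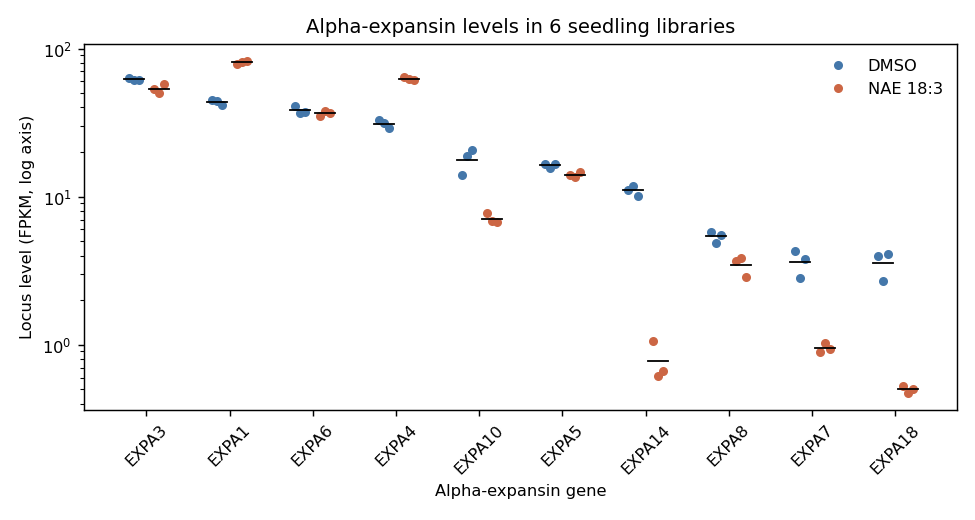
Locus level in FPKM (log axis) of the 10 alpha-expansin genes, ordered by their mean in DMSO, with 1 point per library and a line at the mean of each group of 3. EXPA1 and EXPA4 lie higher after NAE 18:3 in every library, EXPA6 overlaps between groups, and EXPA14, EXPA7 and EXPA18 show the widest gaps downward.

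EXPA14 (AT5G56320), a gene activated by the transcription factor LBD18 in lateral root emergence, fell furthest. It stood at 11.1, 11.8 and 10.1 FPKM in the DMSO libraries and at 1.06, 0.616 and 0.666 FPKM after NAE 18:3. All 3 treated libraries were near or under 1 FPKM and far below every control. The mean was 14.1-fold lower (11 ± 0.848 against 0.779 ± 0.241 FPKM, SD, n = 3 each), and the log2 change was -2.76 ± 0.11 (SE; limma adjusted p = 4e-08 by Benjamini-Hochberg). On the log2(FPKM + 1) scale EXPA14 was the 1 member that fell by at least 2, as 4.09% of all loci tested did, whereas with a pseudocount of 0.1 EXPA18 also passed that limit.

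EXPA7 (AT1G12560) and EXPA18 (AT1G62980) are both expressed in root hair cells and act in root hair initiation and elongation. EXPA18 stood at 3.98, 2.7 and 4.08 FPKM in DMSO and at 0.523, 0.47 and 0.505 FPKM after NAE 18:3. EXPA7 stood at 4.3, 2.83 and 3.79 FPKM in DMSO and at 0.896, 1.02 and 0.93 FPKM after NAE 18:3. Both were lower in 3 of 3 treated libraries, and DMSO replicate 2 was the lowest control for both. EXPA18 was 7.18-fold lower, and the log2 change was -1.60 ± 0.14 (SE; limma adjusted p = 7e-06 by Benjamini-Hochberg), and this change was -2.60 with a pseudocount of 0.1, since adding 1 FPKM compresses so low a level. EXPA7 was 3.84-fold lower, and the log2 change was -1.24 ± 0.13 (SE; limma adjusted p = 2.7e-05 by Benjamini-Hochberg).

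In DMSO the root hair pair stood at nearly equal levels. The ratio of EXPA7 to EXPA18 within a library was 1.08, 1.05 and 0.93 in DMSO and 1.71, 2.17 and 1.84 after NAE 18:3. The mean log2 ratio was higher by 0.90 after NAE 18:3 and the ratios of the groups did not overlap. An exact permutation test over the 6 libraries gave its smallest possible value (two-sided, p = 0.1). That test cannot reach the threshold with 3 against 3 libraries, so it decides nothing about this difference. The treated ratios are of levels near or under 1 FPKM. EXPA6, the third gene with a match to the root hair core, is described with the abundant members and did not pass the test.

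EXPA10 (AT1G26770), which promotes leaf and petiole growth and acts at the base of the pedicel, fell as well. Its levels were 14.1, 18.7 and 20.5 FPKM in DMSO and 7.79, 6.8 and 6.69 FPKM after NAE 18:3. DMSO replicate 1 was the lowest control and still lay above every treated library. The mean was 2.51-fold lower, and the log2 change was -1.20 ± 0.12 (SE; limma adjusted p = 2e-05 by Benjamini-Hochberg). EXPA8 (AT2G40610) fell less, from 5.75, 4.88 and 5.54 FPKM to 3.67, 3.87 and 2.86 FPKM, a log2 change of -0.52 (SE 0.11). Its groups did not overlap (limma adjusted p = 0.0018 by Benjamini-Hochberg), and its change was -0.81 with upper-quartile scaling and -0.39 after quantile normalization. The 1 EXPA8 transcript that passed the filter had a log2 change of -0.32 and did not pass the test (limma adjusted p = 0.12 by Benjamini-Hochberg).

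EXPA1 and EXPA4 were the members that rose. EXPA1 (AT1G69530), known from the opening of stomata and from the swelling of pericycle cells before lateral root divisions, stood at 44.6, 43.9 and 41.8 FPKM in DMSO and at 78.8, 80.9 and 82.9 FPKM after NAE 18:3. EXPA4 (AT2G39700) stood at 32.9, 31.2 and 28.9 FPKM in DMSO and at 64, 62.7 and 61.1 FPKM after NAE 18:3. For both genes the highest control lay well below the lowest treated library. EXPA1 was 1.86-fold higher, at a log2 change of 0.88 ± 0.04 (SE; limma adjusted p = 6e-08 by Benjamini-Hochberg), and EXPA4 was 2.02-fold higher, at 0.99 ± 0.05 (SE; adjusted p = 1.6e-07). These rises were smaller with the other scalings, at 0.53 and 0.65 with the upper quartile and at 0.50 and 0.61 with quantile normalization, and both were called there too. Over all loci tested, 18.4% rose by at least 1 on the log2(FPKM + 1) scale. EXPA4 lay at that limit, at 0.99 there and at 1.01 with a pseudocount of 0.1.

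EXPA3, EXPA5 and EXPA6 showed small differences on the deposited scale. EXPA3 (AT2G37640), the most abundant member in DMSO, stood at 62.8, 61.2 and 61.8 FPKM there and at 53.6, 50.2 and 57.2 FPKM after NAE 18:3. EXPA5 (AT3G29030), a growth gene that responds to brassinosteroids, stood at 16.6, 15.5 and 16.7 FPKM in DMSO and at 14.1, 13.5 and 14.7 FPKM after NAE 18:3. Both were slightly lower in every treated library, with log2 changes of -0.21 and -0.20 (SE 0.05 each; limma adjusted p = 0.0039 and adjusted p = 0.0088 by Benjamini-Hochberg). With upper-quartile scaling their changes were -0.55 and -0.53. The main EXPA3 transcript, at a log2 change of -0.16, did not pass the test (limma adjusted p = 0.051 by Benjamini-Hochberg). It was called lower at -0.47 with upper-quartile scaling. The minor EXPA3 transcript was called lower on the deposited scale, at -0.79. EXPA6 (AT2G28950) stood at 40.8, 36.8 and 37.3 FPKM in DMSO and at 35.1, 38 and 36.5 FPKM after NAE 18:3, and the groups overlapped. Its log2 change of -0.07 (SE 0.05) did not pass (limma adjusted p = 0.25 by Benjamini-Hochberg), whereas it was called lower at -0.44 after quantile normalization and at -0.41 after scaling to the upper quartile.

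**Figure D2:**
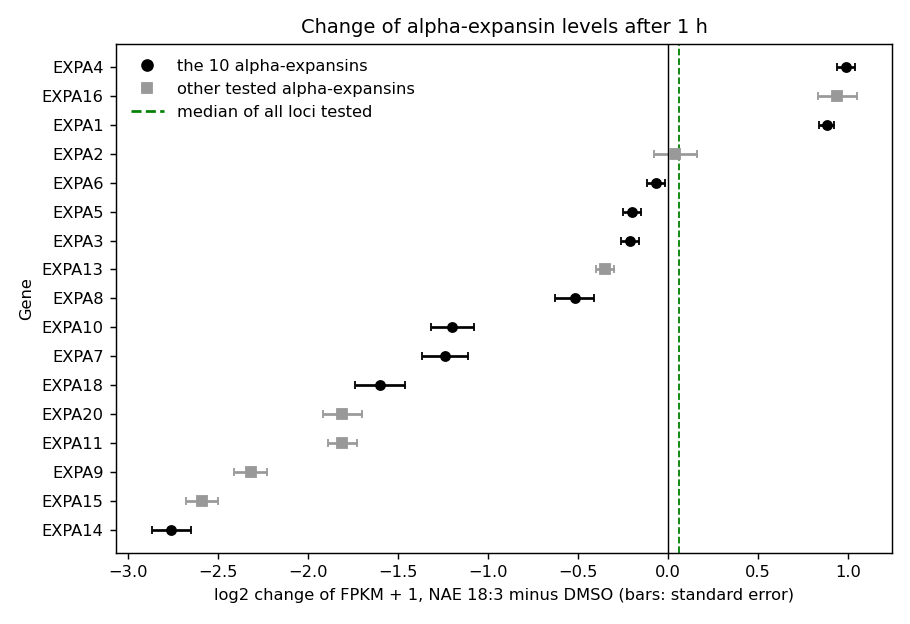
Log2 change of FPKM + 1 (NAE 18:3 minus DMSO) with its standard error for the 10 alpha-expansins (black circles) and the 7 other tested alpha-expansins (grey squares). The dashed line is the median of all loci tested, 0.06; EXPA4, EXPA16 and EXPA1 lie near 1, and EXPA14 lies lowest at -2.76.

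The order of the levels differed between the groups. In DMSO the order from the highest mean was EXPA3, EXPA1, EXPA6, EXPA4, EXPA10, EXPA5, EXPA14, EXPA8, EXPA7 and EXPA18. Neighbours whose ranges overlapped in DMSO were EXPA10 with EXPA5 and EXPA7 with EXPA18. After NAE 18:3 the order was EXPA1, EXPA4, EXPA3, EXPA6, EXPA5, EXPA10, EXPA8, EXPA7, EXPA14 and EXPA18, in which the ranges of EXPA7 and EXPA14 overlapped. EXPA4 thus moved from rank 4 to rank 2, ahead of EXPA3, and EXPA14 moved from rank 7 to rank 9.

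In the summed level of the 10 genes, the shares of EXPA1 and EXPA4 were larger after NAE 18:3 and those of the other 8 were smaller. EXPA1 and EXPA4 together held 32.7%, 32.7% and 30.7% of the summed FPKM of the 10 genes in DMSO and 55%, 55.7% and 54.5% after NAE 18:3. The root hair pair EXPA7 and EXPA18 together held 3.49%, 2.41% and 3.41% in DMSO and 0.546%, 0.577% and 0.544% after NAE 18:3. EXPA14 alone went from 4.72% ± 0.378 to 0.299% ± 0.0933 (SD, n = 3 each). Among the abundant members, EXPA3 went from 26.7% ± 0.147 to 20.6% ± 1.11 and EXPA6 from 16.5% ± 0.632 to 14% ± 0.617. These shares do not depend on scaling by 1 factor per library. The sum itself was 237, 230 and 231 FPKM in DMSO and 260, 258 and 264 FPKM after NAE 18:3. That ratio of 1.12 turned to lower with both other scalings, with log2 ratios of 0.16 as deposited, -0.19 with the upper quartile and -0.17 with quantile normalization.

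**Figure D3:**
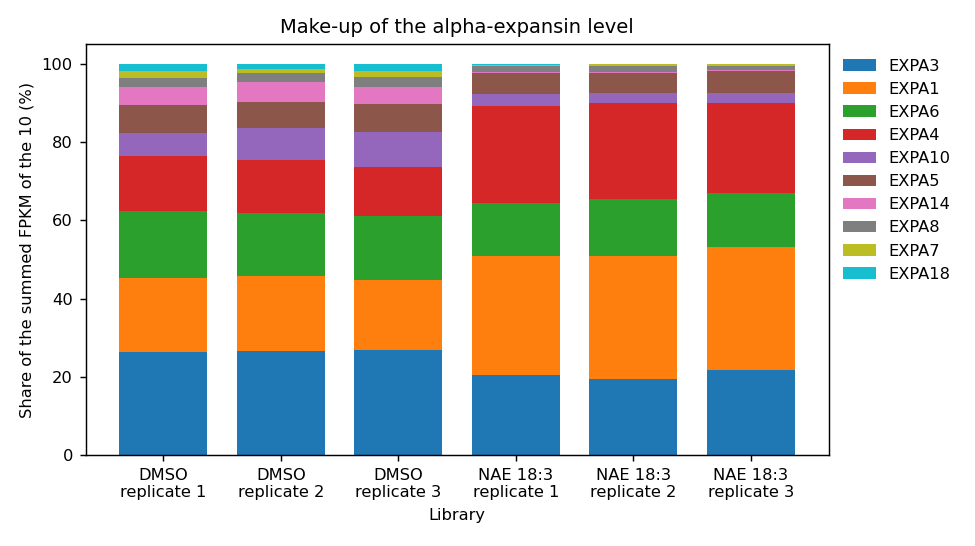
Share (%) of each of the 10 alpha-expansin genes in their summed FPKM, with 1 bar per library. EXPA1 and EXPA4 together fill 30.7% to 32.7% of the bars of the DMSO libraries and 54.5% to 55.7% of those of the NAE 18:3 libraries.

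The authors' assembly gave 23 transcripts for the 10 genes, of which 15 had a mean of at least 1 FPKM. In a limma fit over all transcripts past that filter, in which 64% of all transcripts were called, 3 of these rose, 8 fell and 4 did not pass. How reads were divided between overlapping transcripts is an estimate by the authors' software. For EXPA1 the transcript AT1G69530.2 carried 83.1% to 89.7% of the locus level in the 6 libraries and rose from 38.4 ± 1.86 to 70.4 ± 1.94 FPKM. The rise of EXPA1 was therefore mostly that of its main transcript.

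For EXPA5 the assembly gave a pair of transcripts under the same TAIR name. The larger one stood at 12.6 ± 0.726 and 13 ± 0.798 FPKM and did not pass (log2 change 0.05 ± 0.07, SE; limma adjusted p = 0.6 by Benjamini-Hochberg). Quantile normalization turned its log2 change to -0.22, and scaling to the upper quartile to -0.25. The smaller one fell, with means of 3.72 ± 1.33 and 1.07 ± 0.399 FPKM (log2 change -1.16 ± 0.27, SE; limma adjusted p = 0.0089 by Benjamini-Hochberg). It made up 14.6% to 29.2% of the locus in DMSO and 5.08% to 10.8% after NAE 18:3. On the deposited scale the small fall of the EXPA5 locus thus lay in the minor transcript.

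All 3 transcripts of EXPA10 fell. The main one, named AT1G26770.1, went from 7.99 ± 1 to 5.11 ± 0.535 FPKM, a log2 change of -0.56. The others, AT1G26770.2 and a further transcript under the name AT1G26770.1, went from 5.31 ± 2.44 to 1.17 ± 0.358 FPKM and from 4.47 ± 1.47 to 0.819 ± 0.81 FPKM. The main transcript held 36.9% to 62.7% of the locus in DMSO and 57.9% to 82.9% after NAE 18:3, ranges that overlap. For EXPA14 the main transcript fell by 2.34 on the log2 scale, and one minor transcript, at 1.4 ± 0.398 FPKM in DMSO, was listed at 0 in all 3 treated libraries.

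**Figure D4:**
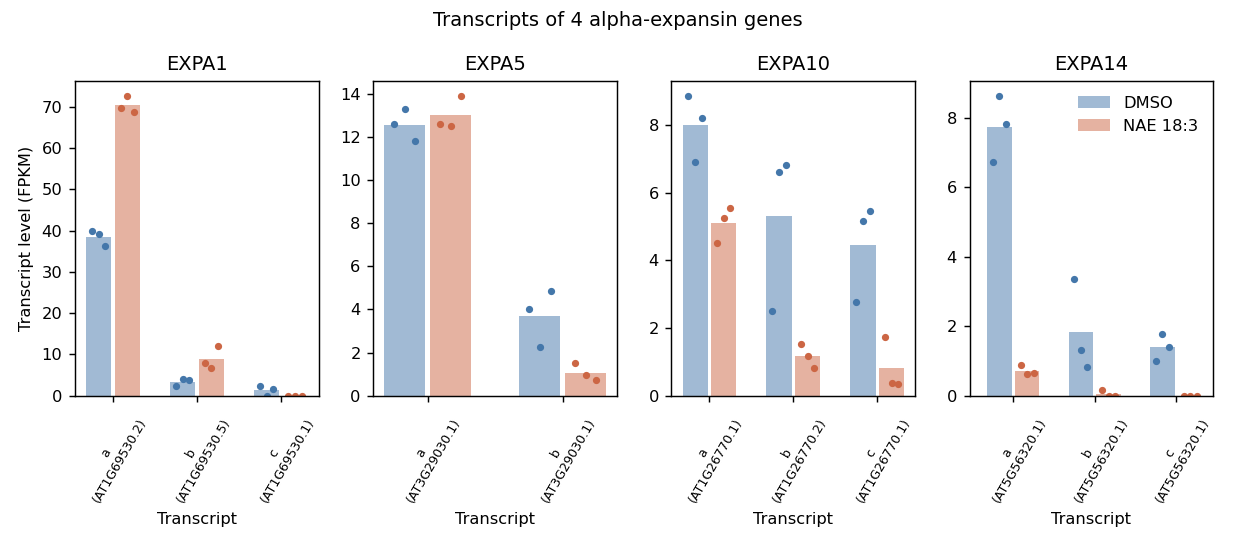
FPKM of the assembled transcripts (up to 3 per gene, by their mean in DMSO) of EXPA1, EXPA5, EXPA10 and EXPA14, with bars at the mean of 3 libraries and 1 point per library. The main EXPA1 transcript rises from 38.4 to 70.4 FPKM, the larger EXPA5 transcript is near 13 FPKM in both groups, and each EXPA10 transcript is lower after NAE 18:3.

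Of the 16 other alpha-expansin genes of the species, EXPA19 was not analysed here and 5 (EXPA22 to EXPA26) were listed at 0 in all 6 libraries. Of the 7 that passed the filter 5 fell, EXPA16 rose and EXPA2 did not pass, with a median log2 change of -1.81. Among all loci tested 39.2% were called lower, and the median was 0.06. EXPA9 stood at 46.8, 39.2 and 36.8 FPKM in DMSO and at 6.85, 7.49 and 7.79 FPKM after NAE 18:3. EXPA11 went from 26.3, 30.2 and 33.4 FPKM to 8.08, 7.37 and 7.89 FPKM. Their levels in DMSO were near those of EXPA4 and EXPA6, and both fell to under 10 FPKM. EXPA15 and EXPA20 fell by 2.59 and 1.81 on the log2 scale and EXPA13 fell by 0.35. EXPA16 rose from 2.53, 2.79 and 3.59 FPKM to 6.86, 6.9 and 6.01 FPKM (log2 change 0.94, limma adjusted p = 4.9e-05 by Benjamini-Hochberg). EXPA2, which acts in seed germination, ranged from 3.74 to 5.25 FPKM in DMSO and from 4.02 to 4.84 FPKM after NAE 18:3, so that its groups overlapped. EXPA17, which like EXPA14 acts in lateral root emergence, had a mean under the filter. Its control values were 1.31, 1.85 and 2.19 FPKM, and all 3 treated libraries list it at 0. EXPA12 and EXPA21 were also under the filter, with highest values of 1.1 and 0.263 FPKM.

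Summed over the 25 listed alpha-expansins, the level was 367, 351 and 356 FPKM in DMSO and 301, 302 and 306 FPKM after NAE 18:3. For the sum of those that passed the filter the log2 ratio was -0.23 as deposited, -0.58 with the upper quartile and -0.54 with quantile normalization. The other 15 together went from 130, 121 and 125 FPKM to 41.8, 44 and 42.1 FPKM. The 10 genes held 65% ± 0.479 of the family's level in DMSO and 85.9% ± 0.449 after NAE 18:3 (SD, n = 3 each).

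Of 10 beta-expansin and expansin-like genes 4 were listed at 0 in all libraries, and 3 rose and 3 fell. Among all loci tested 83.2% were called. EXPB1, with a mean of 0.173 FPKM after NAE 18:3, passed the filter through its level in DMSO. EXLA3, with a mean of 0.684 FPKM in DMSO, passed through its level after NAE 18:3. The falls were those of the beta-expansins EXPB1 and EXPB3 and, narrowly, of EXLB1. EXPB3 went from 25.1, 22.9 and 20.4 FPKM to 1.92, 2.29 and 1.85 FPKM, and EXPB1 from 8.37, 8.71 and 7.32 FPKM to 0.199, 0.202 and 0.118 FPKM. The rises were those of EXLA1, EXLA2 and EXLA3, members of a group whose wall-loosening activity has not been shown. EXLA1 went from 7.84, 9.1 and 7.37 FPKM to 61.3, 68.5 and 64.7 FPKM, a log2 change of 2.86 (limma adjusted p = 2.4e-09 by Benjamini-Hochberg). EXLA2 and EXLA3 rose by 1.32 and 1.19. EXLB1 had a log2 change of -0.44 (limma adjusted p = 0.033 by Benjamini-Hochberg), and this call was lost without DMSO replicate 1 (-0.24), DMSO replicate 2 (-0.49) or any NAE 18:3 library (-0.46 to -0.42). It was also lost with no filter on low values and, at -0.27, after quantile normalization.

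Of 11 plasma membrane proton pump genes 7 passed the filter, of which 4 rose and 3 fell, with a median log2 change of 0.57, or 0.27 after scaling to the upper quartile. Among all loci tested 83.2% were called and 84.6% had groups that did not overlap. Over all 11 pump genes, the treated libraries lay above all controls for 4 and below them for 5, while 1 overlapped and 1 was listed at 0. The 2 lower genes beyond the tested ones were AHA4 and AHA7, under the filter, with means in DMSO of 1.39 and 1.27 FPKM and after NAE 18:3 of 0.429 and 0.248 FPKM. None of the tested changes reached 1 on the log2(FPKM + 1) scale, with AHA3 closest at 0.99 (1.03 with a pseudocount of 0.1). AHA2, a major pump of the root, stood at 204, 204 and 195 FPKM in DMSO and at 123, 126 and 125 FPKM after NAE 18:3. AHA1, the other major pump, stood at 131, 130 and 123 FPKM in DMSO and at 191, 202 and 199 FPKM after NAE 18:3. The pair moved in opposite directions, with log2 changes of -0.68 for AHA2 and 0.62 for AHA1. These were -1.03 and 0.27 with upper-quartile scaling, and -0.91 and 0.35 after quantile normalization. As deposited, the sum of all 11 genes was 378 to 395 FPKM in DMSO and 384 to 401 FPKM after NAE 18:3. This sum was not taken under the other scalings, so its near equality holds for the deposited scale only. AHA10, on a locus joined with a neighbouring gene, was narrowly lower at -0.41 (limma adjusted p = 0.017 by Benjamini-Hochberg), and that call was lost without DMSO replicate 3, at -0.31, without NAE 18:3 replicate 2, at -0.35, and after quantile normalization, at -0.09.

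The falls of EXPA7 and EXPA18 stood beside falls of most listed root hair genes. The list, like the members, was chosen with earlier results of these data known. Of 23 root hair genes 16 passed the filter, of which 15 fell and 1 rose, with a median log2 change of -1.70. Since several of them passed through their level in DMSO only, the count was also taken over all 23. Of these, 20 had all treated libraries below all controls, 1 had them above and 2 overlapped. Among all loci tested 39.2% were called lower, and 84.6% had groups that did not overlap, in either direction. The share of loci with all treated libraries below all controls was not taken, and loci under the filter are in neither share. The summed level of the list was 127 to 136 FPKM in DMSO and 38.1 to 40.5 FPKM after NAE 18:3, a 3.33-fold difference of means. The sum of EXPA7 and EXPA18 differed 4.99-fold. PRP3, a proline-rich wall protein of root hairs, fell by 3.05 on the log2 scale and XTH14, a xyloglucan-modifying enzyme, fell by 2.91. CSLD3, a cellulose synthase-like protein needed for hair tip growth, went the other way, from 15.5, 15.1 and 14.7 FPKM to 25.3, 26.2 and 26.1 FPKM. Chosen after their values were seen, the transcription factor genes RHD6, which starts root hairs, and RSL4 fell by 1.61 and 0.79 on the log2 scale. Their relatives RSL1 and RSL2, under the filter, were the 2 that overlapped. The means of RSL1 and RSL2 were 0.36 and 0.176 FPKM in DMSO and 0 and 0.109 FPKM after NAE 18:3. A part of these factors in the changes of EXPA7 and EXPA18 was not tested.

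**Figure D5:**
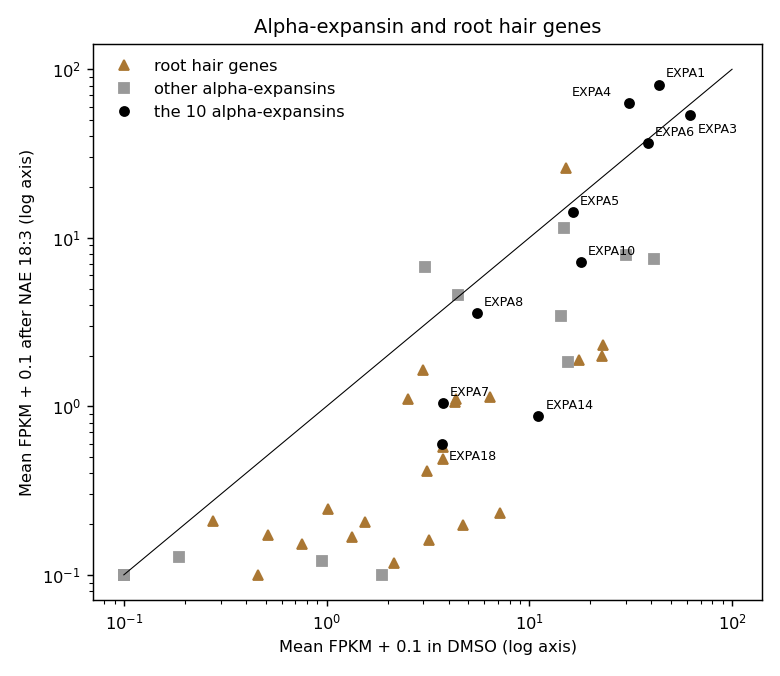
Mean FPKM + 0.1 after NAE 18:3 against mean FPKM + 0.1 in DMSO (log axes, means of 3 libraries) for the 10 alpha-expansins (labelled circles), the other alpha-expansins (squares) and 23 root hair genes (triangles), with the line of equal levels. EXPA7, EXPA18 and EXPA14 lie below the line among the root hair genes, EXPA1 and EXPA4 lie above it, and 1 root hair gene, CSLD3, lies above it.

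Markers of other tissues moved too. Among all loci tested 44.1% were called higher, 39.2% were called lower and 84.6% had groups that did not overlap, in either direction. Of 14 root markers 10 passed the filter, with 8 lower, 1 higher and 1 not past the test (median -0.67), and over all 14 the treated libraries lay below all controls for 12. Their summed level was 2904 to 2984 FPKM in DMSO and 1211 to 1242 FPKM after NAE 18:3, most of it from PYK10, a beta-glucosidase of the root endoplasmic reticulum, which fell by 1.27 on the log2 scale. AGP30, a root arabinogalactan protein, fell by 5.62. WOX5, of the quiescent centre, rose by 0.67, and SCR, of the endodermis, had a log2 change of -0.01 and did not pass. Each is 1 gene of the list and stands for no tissue as a whole. CASP1, ESB1, MYB36 and PLT1 were lower, with log2 changes of -1.45, -0.84, -0.50 and -1.22. PLT2, under the filter, had means of 1.5 FPKM in DMSO and 0.108 FPKM after NAE 18:3. All 9 green tissue markers rose, with a median of 1.82 on the log2 scale (0.57 after quantile normalization) and a summed level of 9505 to 9584 FPKM in DMSO and 34476 to 35996 FPKM after NAE 18:3. RCA, Rubisco activase, and LHCA3, a light-harvesting protein, rose by 2.69 and 1.86. Root and green markers were thus both present in all 6 libraries, as the label of whole seedlings says. Their part in the changes of the alpha-expansins was not tested.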

How the data were processed

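RNA-seq was run on 3 DMSO and 3 NAE 18:3 libraries of whole seedlings. Per the submitters' processing notes, reads were handled with TopHat, Cufflinks and Cuffdiff on TAIR9, with versions and settings not given in the sources used here. The authors deposited 1 table with an FPKM value per assembled transcript and per locus for each library. The unit was read from these tools and from the values, since the headers name none, and 4 columns of merged values were not used. Absolute depth cannot be read from FPKM, so no counting intervals are given.

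Loci whose mean reached 1 FPKM (18194) were compared between the groups on log2(FPKM + 1), using limma 3.58.1 under R 4.3.3. The model held the group alone, and the prior variance followed the mean level. P-values were adjusted over all of them by Benjamini-Hochberg. The fit was also run on simulated data with few changed loci, an equal spread at all levels and no difference in library scale. That run could not check the trend of the prior variance or the choice of scaling. The members and lists were chosen with earlier results of these data known. All 10 members are named, as is every tested expansin. Of the pumps the rule took AHA1, AHA2 and changes of at least 1, and AHA3, AHA4, AHA7 and AHA10 were added after their values were seen. Of the marker lists it took the 2 strongest calls in each direction. SCR, CASP1, ESB1, MYB36, PLT1, PLT2, RHD6, RSL1, RSL2 and RSL4 were added after their values were seen. Likeness to EXPA4 and EXPA14 was the root mean square difference of centred log2 values. Each of the 10 genes had 1 locus, joined with no other gene. P-values are for the difference between the groups, set against the spread between the libraries of a group. In limma that spread is drawn towards the one of loci of similar mean level. Alternatives were other scalings, filters and pseudocounts, no trend, a replicate block, transcripts summed per gene and each library left out.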

Additional observations from a re-analysis of the deposited data

How the results depend on the processing

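The 9 called alpha-expansins kept their direction and their call under every other setting in which they were tested. EXPA6 was called lower with upper-quartile scaling (-0.41) and quantile normalization (-0.44), and was -0.09 to -0.02 with a library left out. With a mean of at least 5 FPKM, EXPA7, EXPA8 and EXPA18 were not tested and 4 members were lower. The log2 ratio of the summed level turned from 0.16 to -0.19 with the upper quartile and to -0.17 with quantile normalization, and was 0.15 to 0.18 with a library left out. The larger EXPA5 transcript turned to -0.25 and -0.22 with these scalings. EXPA2, not called at 0.04, was -0.25 with the upper quartile and -0.05 and -0.01 without DMSO replicate 2 and NAE 18:3 replicate 2. With the replicate number as a block, 7951 loci were higher and 7061 lower, against 8018 and 7125, and 2 members were higher and 7 lower. Same-numbered libraries did not deviate together (correlations of -0.0133, -0.00872 and 0.0182 over loci), so the numbers were not taken to pair them. The upper quartile gave 5857 loci higher and 9497 lower. Levels near 1 FPKM rest on few fragments, so the sizes of the falls of EXPA7, EXPA14 and EXPA18 are less certain than their direction.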

Other observations

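Among all tested loci, those whose centred log2 levels over the 6 libraries were closest to EXPA4 were AT1G67580, VPS34 (AT1G60490) and AT2G02160, with root mean square differences of 0.020, 0.026 and 0.029. Closest to EXPA14 were AT3G06035, NAS4 (AT1G56430), of nicotianamine synthesis, and PYL2 (AT2G26040), of the abscisic acid receptor family, at 0.081, 0.090 and 0.095. Within a difference of 0.2 lay 2497 loci for EXPA4 and 153 for EXPA14. With 2 groups of 3 libraries, this likeness follows mainly the size of the difference between the groups.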
